A study of Mus musculus with 2 samples.

Results

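The 4 Hox clusters of the mouse were examined for H3K27ac (histone H3 acetylated at lysine 27, a mark of promoters and enhancers in use) in cells of the embryonic heart. The members are the called peaks whose midpoint lies in a fixed mm9 window around each cluster: 230 kb for Hoxa on chromosome 6, 280 kb for Hoxb on chromosome 11, 220 kb for Hoxc on chromosome 15 and 210 kb for Hoxd on chromosome 2. They numbered 9 of the 154664 peaks of the series, 7 of 87572 in the atrioventricular canal (AVC) and 2 of 67092 in the chambers. The AVC is the segment between atria and ventricles, and the chambers are the atria and ventricles themselves. Both samples came from FVB/N hearts of stage E10.5 labelled Katushka+ EGFP+. EGFP-positive cells made up the AVC sample and Katushka-positive cells the chamber sample. The labels do not name the promoters that drive these fluorescent reporters. Each tissue had 1 library, so no difference below has a replicate check and no p-value is given. The labelled tissues were not checked against marker genes, for want of an mm9 annotation.

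Hox genes encode homeodomain transcription factors that give cells their position along the head-to-tail axis. They lie in 4 clusters, and their order on the chromosome matches the order of their expression: genes at the 3′ end of a cluster are active early and towards the head, groups 9 to 13 at the 5′ end later and towards the tail. Silent Hox clusters are well known targets of Polycomb proteins, which leave methylation on the same lysine 27 that H3K27ac occupies. In the heart field, Hoxb1 and Hoxa3 are known from progenitors that add to the outflow tract and atria. Only acetylation was measured here.

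The RefSeq gene table for GRCm38.p6 lists 39 protein-coding genes in the clusters, 11 in Hoxa, 10 in Hoxb, 9 in Hoxc and 9 in Hoxd. It served for gene order alone, because the peaks are on mm9. Along the chromosome, Hoxa has its 3′ end next to Skap2 and runs up to Hoxa13, next to Evx1. The other clusters run the opposite way: Hoxb from Hoxb13 (next to Ttll6) to Hoxb1 (next to Skap1), Hoxc from Hoxc13 (next to Calcoco1) to Hoxc4 (next to Smug1), and Hoxd from Hoxd13 (next to Evx2) to Hoxd1 (next to Mtx2). Positions are given below by the side of the window, 3′ or 5′, on which a peak lies, and not as sites at a gene. The windows are wider than the genes at Hoxa and Hoxd at least. On GRCm38, sequences upstream of Hoxa2 to Hoxa13 lie between chr6:52164832 and 52261130. Those upstream of Hoxd13 to Hoxd1 lie between chr2:74667975 and 74762979. Both spans are shorter than the windows of 230 kb and 210 kb. Window densities therefore include neighbouring DNA, and no peak could be assigned to a single gene.

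Chamber peaks were missing altogether from the Hoxa, Hoxb and Hoxc windows, so whatever their exact mm9 position, promoters inside these windows had no called chamber peak. The promoter table held 22 of the 39 genes. It had 9 of the Hoxa genes, 3 of the Hoxb genes and 1 of the Hoxc genes. For each of these clusters the entry with the most CG dinucleotides is shown, at Hoxc the single entry, as 250 bases upstream of the start, from RefSeq (GRCm38.p6), with CG in capitals. Hoxa13 (chr6:52260881-52261130, minus strand), a posterior gene of limb and hindgut, has 35 CG. Hoxb4 (chr11:96318017-96318266, plus strand), known from blood stem cells, has 14. Hoxc4 (chr15:103034145-103034394, plus strand), the gene at the 3′ end of Hoxc, has 8. These coordinates are GRCm38 and must not be set against the mm9 peak positions.
Hoxa13: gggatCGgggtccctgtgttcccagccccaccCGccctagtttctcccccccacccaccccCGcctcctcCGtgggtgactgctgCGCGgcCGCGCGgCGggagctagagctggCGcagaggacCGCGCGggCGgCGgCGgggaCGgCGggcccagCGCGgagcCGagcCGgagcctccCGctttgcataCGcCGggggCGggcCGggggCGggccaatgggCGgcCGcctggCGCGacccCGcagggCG
Hoxb4: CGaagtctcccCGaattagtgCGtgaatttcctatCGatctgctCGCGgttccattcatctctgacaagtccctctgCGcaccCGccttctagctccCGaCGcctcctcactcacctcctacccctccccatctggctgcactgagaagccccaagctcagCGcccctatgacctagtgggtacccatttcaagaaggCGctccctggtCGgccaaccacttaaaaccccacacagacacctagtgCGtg
Hoxc4: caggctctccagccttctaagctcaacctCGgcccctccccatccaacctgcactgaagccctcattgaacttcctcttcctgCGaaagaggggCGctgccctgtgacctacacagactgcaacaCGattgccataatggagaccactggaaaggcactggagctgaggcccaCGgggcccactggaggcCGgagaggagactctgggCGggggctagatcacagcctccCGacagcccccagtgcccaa

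Of all 32851 promoters in the table, 2.97% had at least as many CG as Hoxa13, 29.4% at least as many as Hoxb4 and 43.0% at least as many as Hoxc4. The 24 Hox entries had a median of 12.5 CG (range 2 to 35), against 6 over the whole table. Hoxa13 was chosen as the highest of 10 Hoxa entries, which ranged from 3 to 35 CG. CG was counted without regard to strand, since it reads the same on both.

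The Hox windows were sparse in peaks in both tissues. Over their 940 kb the AVC list had 7.45 peaks per Mb, against 34.0 over the genome, and the chamber list had 2.13 against 26.1. At genome density the windows would have held 32.0 AVC and 24.5 chamber peaks. The AVC density was therefore 4.57-fold and the chamber density 12.2-fold below that of the genome. Peaks covered 0.320% of the window bases in the AVC and 0.0580% in the chambers, against 1.65% and 0.915% over the genome.

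In the AVC the windows held 1 peak at Hoxa, 3 at Hoxb, 1 at Hoxc and 2 at Hoxd. Both chamber peaks lay at Hoxd. The AVC densities were 4.35 (Hoxa), 10.7 (Hoxb), 4.55 (Hoxc) and 9.52 (Hoxd) peaks per Mb, while the 4 chromosomes as a whole had between 33.2 and 38.9. The chamber density at Hoxd was also 9.52 per Mb, against 29.5 on chromosome 2. Each window was thus below its own chromosome in both lists.

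**Figure D1:**
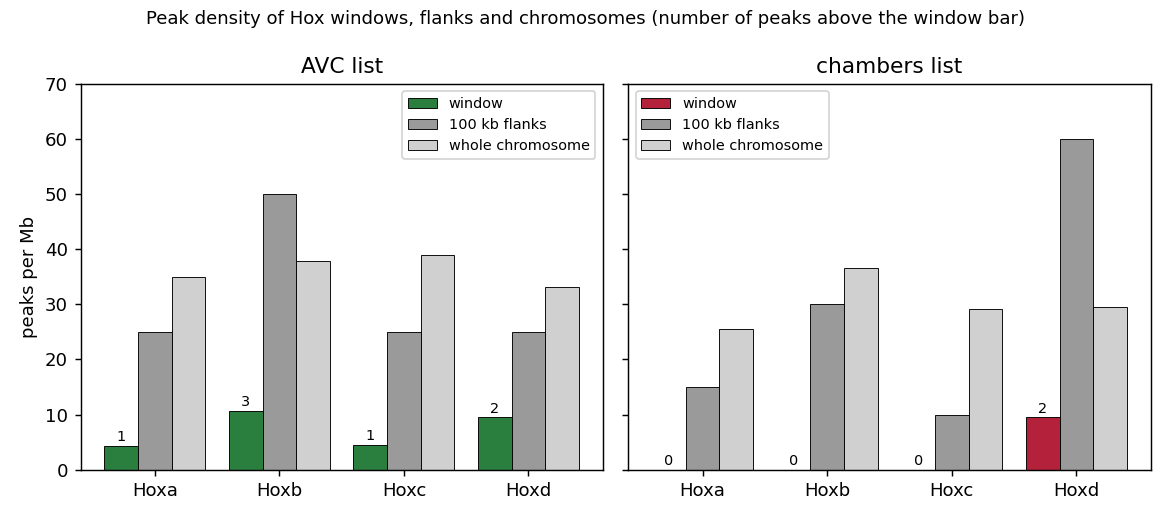
Peaks per Mb (vertical axis) in each Hox window, in 100 kb on both sides of it and over the whole chromosome, for the AVC list (left) and the chamber list (right), with the number of window peaks printed above its bar. Every window bar is lower than its flank and chromosome bars, and the chamber list has 0 peaks at Hoxa, Hoxb and Hoxc.

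Windows with so few peaks were not rare, however. When the genome was cut into windows of the same length as Hoxa, 18.9% had at most 1 AVC peak and 15.9% had no chamber peak. For Hoxb, 28.7% of windows had at most 3 AVC peaks and 12.8% had no chamber peak. For Hoxc the shares were 19.8% (AVC) and 16.7% (chambers), and for Hoxd 29.2% and 45.0%. On the cluster's own chromosome the median window held 6 AVC and 3 chamber peaks for Hoxa, 9 and 7 for Hoxb, 7 and 4 for Hoxc, and 5.5 and 4 for Hoxd. All 8 counts in Hox windows were below these medians. The lowest share was that of the chamber list at Hoxb: on chromosome 11, 6.12% of 280 kb windows had no chamber peak. Assembly gaps and repeats that cannot be mapped count as empty windows here; their share was not measured. Leaving out windows without any peak in either list, the lowest and highest of the 8 genome-wide shares were 7.49% (chambers, Hoxb) and 40.3% (chambers, Hoxd).

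**Figure D2:**
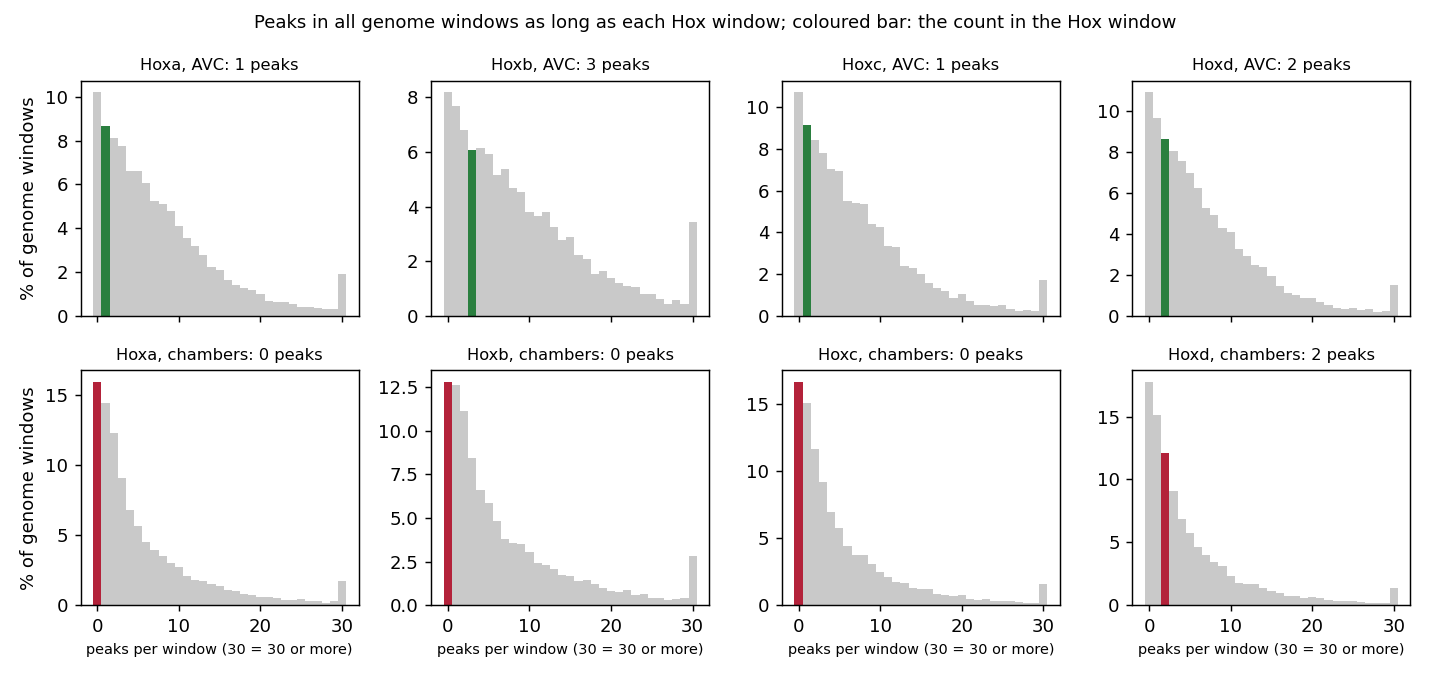
Share of genome windows (vertical axis, percent) by number of peaks per window (horizontal axis, counts of 30 or more pooled), for windows as long as each Hox window, AVC above and chambers below; the coloured bar marks the count in the Hox window. The coloured bars lie at 0 to 3 peaks, among the most common counts of the genome.

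Along the clusters, in bins of 20 kb from each window's start, 40 of 48 bins were empty in both lists and no bin held more than 1 peak of a list. The last bins of Hoxa and Hoxd were only 10 kb long, and both are among the empty ones. A peak of either list lay in 8 bins (16.7%), whereas 47.7% of the 20 kb bins of the genome held a peak. AVC peaks occupied 7 bins (14.6%, genome 38.8%) and chamber peaks 2 (4.17%, genome 28.0%). By cluster, 1 of 12 bins was occupied at Hoxa, 3 of 14 at Hoxb, 1 of 11 at Hoxc and 3 of 11 at Hoxd. The single bin with a peak of both lists was the fifth of Hoxd.

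Peaks were sparse in the central and in the outer parts of the windows. The central 50% of each window, 470 kb in all, held 1 AVC and 1 chamber peak, which are the same locus at Hoxd, against 16.0 and 12.2 at genome density. The outer 50%, of the same length, held 6 AVC peaks and 1 chamber peak. This split was made after the positions had been seen, and an AVC peak at Hoxb, 64.4 kb from the window's end, lay just outside the central part. The AVC had 3 peaks on the 3′ side of the window centres and 4 on the 5′ side, and the chambers had 1 and 1.

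**Figure D3:**
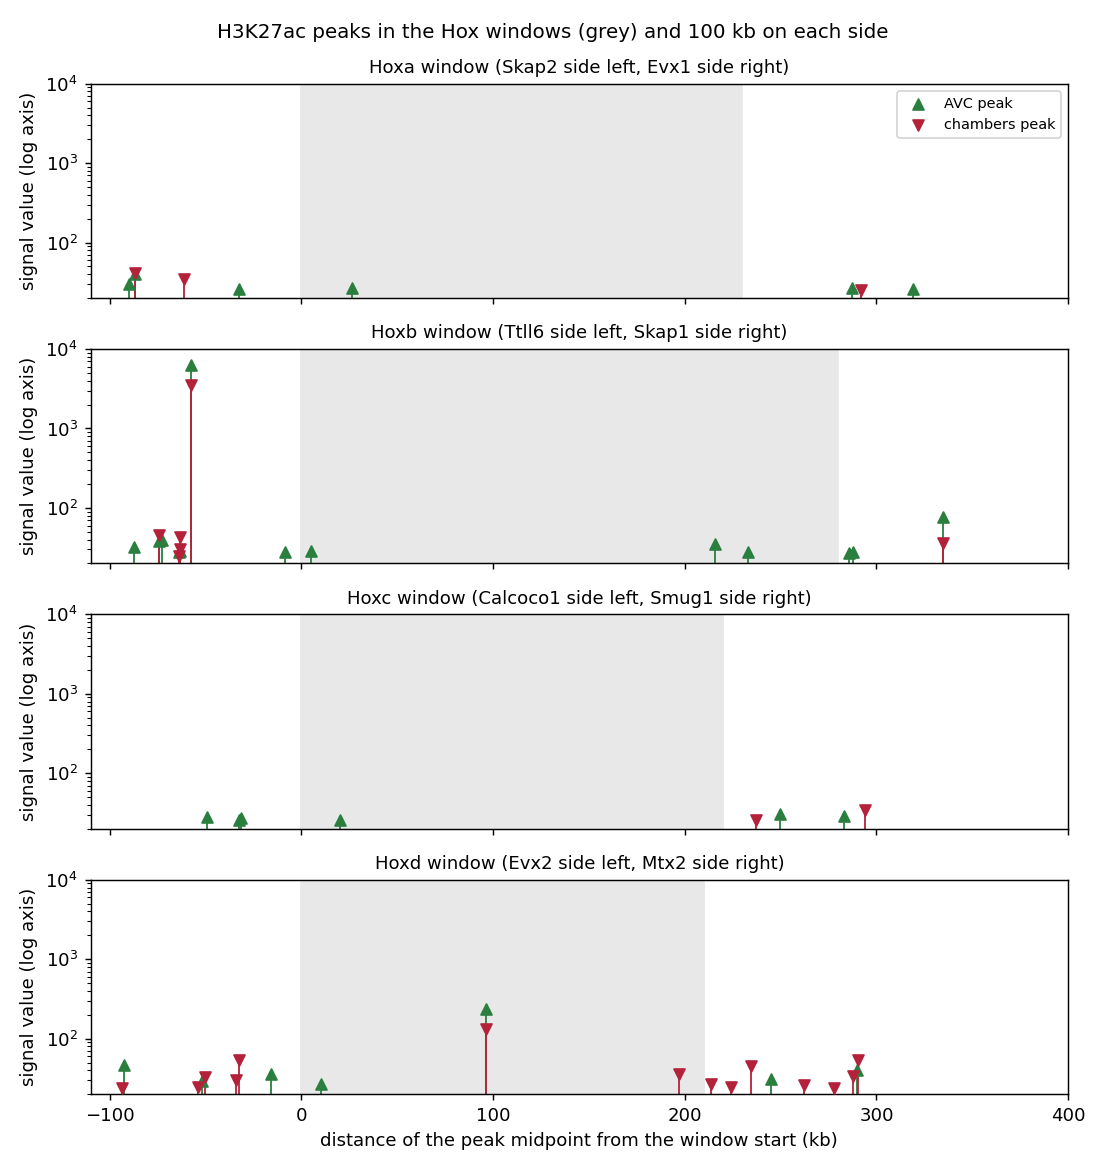
Signal value of each peak (vertical log axis, unscaled between lists) by distance of its midpoint from the start of the Hox window (horizontal axis, kb), with 100 kb on each side; grey marks the window, upward triangles AVC peaks and downward triangles chamber peaks. The grey areas of Hoxa, Hoxb and Hoxc hold 5 AVC peaks with values from 26 to 35 and no chamber peak, and the Hoxd area holds a locus called in both lists.

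At Hoxa the AVC peak lay at chr6:52076163-52076709, 26.4 kb from the window start, in the part towards Skap2. It was 547 bp wide, with a signal value of 27 and a score of 2.13. The score is the caller's Log(ER), for which the calling threshold was 2, and 13.3% of the AVC peaks of chromosome 6 scored lower. No AVC peak followed for 260 kb, of which 203 kb lay in the window. The chamber list had no peak for 353 kb, which spanned the whole window.

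At Hoxb the first AVC peak, chr11:96004606-96005016, lay 4.81 kb from the window end on the Hoxb13 side. The others, chr11:96215319-96215933 and chr11:96232974-96233460, lay on the Hoxb1 side. Their signal values were 29, 35 and 28, and their scores 2.25, 2.93 and 2.14. The middle of these scored above 61.1% of the AVC peaks of its chromosome, the others above 22.3% and 11.9%. Between the first and the second lay 210 kb without an AVC peak. The chamber list was empty for 392 kb, the longest peak-free stretch of either list over a Hox window, and the nearest chamber peaks were 62.0 to 119 kb from these AVC peaks.

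At Hoxc the AVC peak chr15:102719815-102720238, towards Hoxc13, had a value of 26 and a score of 2.01, the lowest score in the AVC list. It was followed by 229 kb without an AVC peak. The chamber list was empty for 385 kb, and the nearest chamber peak was 168 kb from the AVC peak.

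At Hoxd both lists had 2 peaks. The AVC peak chr2:74460126-74460481 lay 10.3 kb from the window end on the Hoxd13 side. It had a value of 27 and a score of 2.07, below which no AVC peak of chromosome 2 fell. The chamber peak chr2:74646885-74647245 lay 12.9 kb from the window end on the Hoxd1 side. It had a value of 36 and a score of 3.79, above 70.6% of the chamber peaks of the chromosome. It was 361 bp wide, and no AVC peak lay within 47.5 kb. The longest peak-free stretches here were shorter, 148 kb in the AVC and 128 kb in the chambers.

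These stretches were long beside the median distance between neighbouring peaks, 10.8 kb in the AVC and 9.71 kb in the chambers, and between 98.5% and 98.9% of all such distances were shorter than those over Hoxa, Hoxb and Hoxc. Weighted by length they were less unusual. Stretches at least as long as those over Hoxa, Hoxb and Hoxc held between 18.6% and 22.3% of all peak-free bases in both lists. For Hoxd the shares were 30.2% (AVC) and 50.5% (chambers).

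A single locus, in the Hoxd window, was called in both tissues. The AVC peak chr2:74546112-74546276 (165 bp, value 237, score 24.23) lay wholly within the chamber peak chr2:74546107-74546290 (184 bp, value 133, score 20.27), 96.2 kb from the window start. They ranked 82nd among AVC and 107th among chamber peaks of chromosome 2 by score. The unscaled AVC value was 1.78 times the chamber value. The locus belonged to a class of peaks with scores of 10 or more and widths under 300 bp, 2.35% of the AVC and 2.71% of the chamber list. Of this class 99.9% was shared in each list, and its AVC values were a median of 1.71 times the chamber values (interquartile range 1.58 to 1.87), which takes in the ratio at Hoxd. Without this class the windows held 6 AVC peaks and 1 chamber peak and nothing shared.

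The other AVC peaks were weak and unshared. Of the 7 AVC peaks, 1 was shared with the chambers (14.3%, exact Clopper-Pearson 95% interval 0.361 to 57.9), against 23.2% of the whole list. In the chambers it was 1 of 2, an interval of 1.26 to 98.7, against 31.6%. These intervals cover counting error only. The 6 unshared AVC peaks scored from 2.01 to 2.93. The Hoxb peak of score 2.93 was the only one of them above the list's median of 2.62. They were between 356 and 615 bp wide, while the list's median width was 472 bp.

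**Figure D4:**
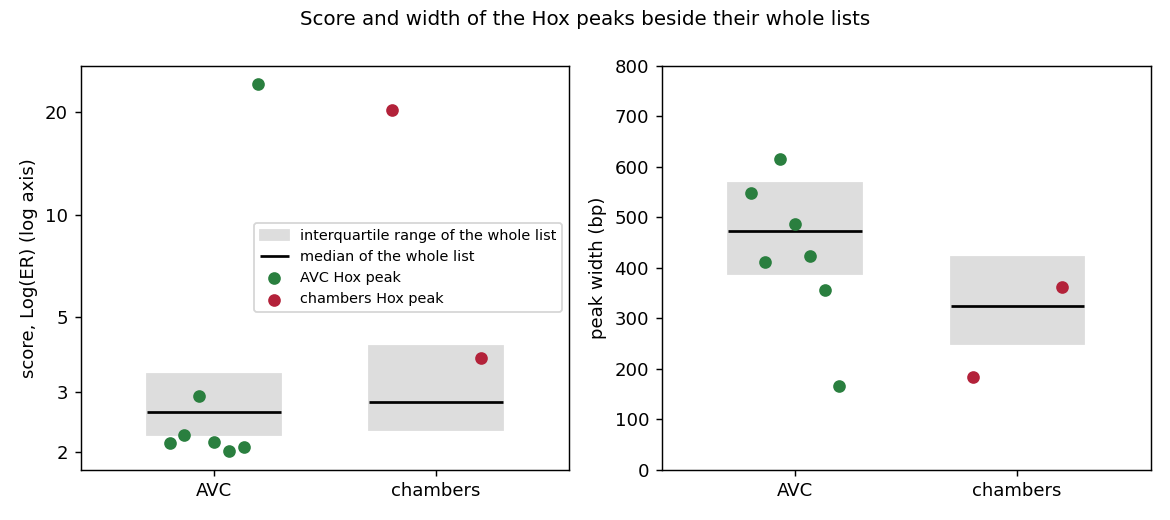
Score on a log axis (left) and width in bp (right) of each Hox peak, with the median (line) and interquartile range (grey box) of its whole list. In the AVC, 6 of the 7 Hox peaks score under 3, and the remaining peak, at 24.23, is also the narrowest at 165 bp.

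The AVC made up 77.8% of the Hox peaks (counting interval 40.0 to 97.2), and 56.6% of the peaks of both lists. The Hoxd locus enters that share in both lists, and the peaks come from 1 library per tissue, so the share says nothing of a difference between the tissues. At scores of 3 or more the order turned: 1 AVC and 2 chamber peaks were left, where genome density would give 10.97 and 10.89. In the lists, 34.3% of AVC and 44.5% of chamber peaks reached that score. At scores of 5 or more the shared locus alone remained, 1 peak in each list, against 3.18 and 4.43 at genome density.

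In the 100 kb flanks peaks were denser than within the windows, but not always from the window edge on. Measured to the nearer peak edge, the first chamber peaks lay 60.8 and 61.9 kb outside the Hoxa window. They lay 57.4 and 54.6 kb outside the Hoxb window and 148 and 17.0 kb outside the Hoxc window. The first AVC peaks lay between 5.56 kb (Hoxb) and 56.8 kb (Hoxa) outside the 4 windows. In 100 kb on each side of the 4 windows pooled, the AVC list had 25 peaks, 31.3 per Mb, and the chamber list 23 peaks, 28.8 per Mb. By cluster the chamber flanks ranged from 10 per Mb at Hoxc to 60 per Mb at Hoxd, and the AVC flanks from 25 per Mb at Hoxa, Hoxc and Hoxd to 50 at Hoxb. Chamber flanks were below their own chromosomes at Hoxa (15 against 25.5), Hoxb (30 against 36.6) and Hoxc (10 against 29.1). At Hoxd they were above it (60 against 29.5). The AVC flanks were above their chromosome at Hoxb alone (50 against 37.8). The Hoxb flanks held 10 AVC and 6 chamber peaks. The Hoxd flanks held 5 and 12, the Hoxa flanks 5 and 3, and the Hoxc flanks 5 and 2. The strongest flank peak in both lists lay 57.5 kb outside the Hoxb13 end of the Hoxb window, at chr11:95942385-95942615 in the chambers, with a value of 3498 and a score of 34.62. The AVC peak there had a value of 6338 and a score of 34.34. At 231 bp the chamber peak belonged to the class of scores of 10 or more and widths under 300 bp. The AVC peak, at 329 bp, was outside that class by width alone. The chamber list had 7 of its Hoxd flank peaks on the Hoxd1 side, the nearest 3.54 kb from the window, and 5 on the Hoxd13 side. Farther out both lists exceeded their genome densities of 34.0 (AVC) and 26.1 (chambers) in most steps of 100 kb. They had 47.5 peaks per Mb each from 100 to 200 kb, and 46.3 (AVC) and 56.3 (chambers) from 200 to 300 kb. From 300 to 400 kb the values were 33.8 and 30. At Hoxc the chamber flanks went from 10 per Mb within 100 kb to 67.5 within 200 kb.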

How the data were processed

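H3K27ac ChIP-seq was made from sorted cells of 2 mouse heart tissues, 1 library each, and sequenced on a SOLiD instrument, per the labels' protocols. OccuPeak 1.3 made a peak list for either library, working per chromosome at a Log(ER) threshold of 2 and a read length of 50, per the file headers. The headers give a fragment length of 60.5 for the AVC and 68 for the chambers. Median peak width was 472 bp in the AVC and 325 bp in the chambers. Bowtie, SAMtools and mm9 are named in the submitters' processing notes. As deposited, each peak's score is its Log(ER), on a log of unstated base. The signal deposited by the authors is a whole number per peak that the headers do not name, and it is not scaled between lists. Sequencing depth and the use of an input library are not given in the sources used here. Where no peak was called, acetylation may still be present.

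Starts were turned to 1-based positions, and a peak was placed by its midpoint. Sharing meant an overlap of 1 bp or more between peaks of the 2 lists. Genome values cover chromosomes 1 to 19, X and Y between their first and last peak, 2574.8 Mb. Gaps in the assembly were not removed. All peaks of the windows are given. The windows, lists and alternatives were chosen with earlier results of these data known; the 500 kb flanks, the removal of narrow peaks of score 10 or more, the score classes and the central windows were added after these files had been seen. Counting was tested on simulated data. Software was Python 3.11.15 with scipy 1.17.1, pandas 2.3.3, numpy 2.4.6 and, for figures, matplotlib 3.10.9.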

Additional observations from a re-analysis of the deposited data

How the results depend on the processing

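Of 101 recomputed values, 14 were set apart as unable to change (counts of 0 under a filter, chamber counts with equal peak numbers). Of the other 87, 56 stayed within 1.5 times of the count or rate first given, or within its interval. With scores of at least 3 the AVC share turned from 77.8% to 33.3% (interval 0.840 to 90.6). AVC peaks fell to 1 in all, with 0 at Hoxa, Hoxb and Hoxc and 1 at Hoxd, and AVC bins with a peak fell to 1. With equal peak numbers, which removed AVC peaks scoring under 2.21, AVC peaks fell to 3 in all, with 0 at Hoxa and Hoxc and 1 at Hoxd. The AVC share was then 60% (interval 14.7 to 94.7), with 67092 peaks in each list. With peaks of at least 300 bp, and also without narrow peaks of score 10 or more, the AVC share was 85.7% (interval 42.1 to 99.6). With peaks of at least 300 bp, or without narrow peaks of score 10 or more, Hoxd had 1 AVC and 1 chamber peak, the chambers had 1 peak in all and no peak was shared (0 in each list). Chamber bins with a peak were 1 at 300 bp. These alternatives hold fewer peaks by construction. The limit of 300 bp cuts deeper into the chamber list, with a lower quartile of width of 248 bp against 388 bp in the AVC. Other overlap rules, bin starts and covered bases moved no value by over 1.5 times, nor did wider flanks for the 4 clusters pooled. Bins of 10 kb and ranking by signal value also left their values the same, but could not have changed them, although they stand among the 87. No 20 kb bin held more than 1 peak of a list. Each Hox peak had the same percentile by signal value as by score. Further values among the 87 were fixed as well. The AVC peaks at Hoxa, Hoxb and Hoxc all scored under 10, so removing narrow peaks of score 10 or more could not change their counts. The rule of 50% overlap could not change sharing, since the shared AVC peak lay wholly within the chamber peak. The count of 56 therefore overstates how stable the values were. By cluster, flanks of 200 kb moved the peaks per Mb at Hoxc from 25 to 52.5 (AVC) and from 10 to 67.5 (chambers), and at Hoxd from 60 to 37.5 (chambers). Flanks of 500 kb, added later, gave 48 (AVC) and 36 (chambers) at Hoxa, 27 (AVC) at Hoxb, 58 (AVC) and 72 (chambers) at Hoxc and 29 (chambers) at Hoxd; the cause was not tested. No paired analysis was possible because each tissue has 1 library. The unknown depth limits what a missing peak shows.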
